A study of Mus musculus with 12 samples.

Results

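The genes of the proteasome were followed in mouse splenic B cells, as RNA levels on 12 Affymetrix mouse genome arrays. They were chosen by a rule on names, with earlier results of these data known. The rule takes every gene of the platform annotation whose symbol starts with Psma, Psmb, Psmc, Psmd, Psme or Psmg and then a digit. Each gene was read on the brightest probe set that maps to it and to no other gene. This rule found 48 of the 18193 genes that have a probe set of their own. Of these, 46 encode subunits, activators or assembly factors of the proteasome, and Psmb8, Psmb9 and Psmb10 are described apart from the other 43. The other matches, Psmc3ip and Psme3ip1, are given once at the end, and Psme2 was not measured because its probe set is shared with the near-identical Psme2b.

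The cells were B220+ spleen cells of C57BL/6 mice with the transgene Tg(IghelMD4)4Ccg, which gives B cells a receptor for hen egg lysozyme, and they were purified with magnetic beads. All groups were cultured with anti-CD40 and IL21, signals that stand in for help from follicular T cells, and with HEL, the lysozyme antigen of that receptor. Control cells and cells given an agent against Jmjd2a or against Jmjd2c were taken at day 1 and at day 3, which makes 6 groups of 2 biological replicates. Jmjd2a and Jmjd2c are histone lysine demethylases, now named Kdm4a and Kdm4c, and the labels give the depletion as siRNA in one place and as shRNA virus in another. Age, sex, the number of mice per replicate and the efficiency of the depletion are not given in the sources used here. As the labels name the replicates biological but no animal, a p-value measures the spread between these arrays.

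The proteasome is the protease that cuts proteins tagged with ubiquitin. Its core particle stacks rings of alpha subunits (Psma genes) and beta subunits (Psmb genes), and 3 of the beta subunits cut: those encoded by Psmb5, Psmb6 and Psmb7. In lymphocytes and after interferon gamma, Psmb8, Psmb9 and Psmb10 are built in instead and make the immunoproteasome, whose peptides are well suited to MHC class I. The regulatory particle unfolds the substrate with ATPases (Psmc genes) and holds ubiquitin receptors and a deubiquitinase among its other subunits (most Psmd genes). Alternative activators (Psme genes) open the core without ATP, and the Psmg genes encode chaperones that assemble it.

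Several features of the whole series bear on every result below. Kdm4a on the arrays labelled Jmjd2a differed from control by 0.11 at day 1 and -0.12 at day 3 (log2; adjusted p = 0.62 and 0.36), and Kdm4c on those labelled Jmjd2c by 0.19 and 0.03 (adjusted p = 0.41 and 0.91), so neither was lower past the test and the groups are called here by their labels. The day 3 arrays of both labels correlated more closely with day 1 control (0.9967 and 0.9954) than with day 3 control (0.9849 and 0.9876). Day 3 control replicate 2 stood apart, with an interquartile range of 3.08 against 3.38 to 3.63 on the other arrays and a ribosomal RNA control value of 10.73 against 11.73 to 12.73. The 7 B cell markers averaged 9.71 and 9.75 on the day 1 controls and 10.38 to 10.69 on the labelled day 1 arrays. At day 3 they averaged 10.07 and 9.95 on the controls and 9.81 to 9.84 on the labelled arrays. Among them Cd79a, part of the B cell receptor, read 6.8 to 8.46 over the arrays. Its mean was 7.01 in control at day 1, 8.07 and 8.45 with the Jmjd2a and Jmjd2c label at day 1, and 7.09 in control at day 3. In such bulk RNA, fewer cells of a type and less RNA per cell cannot be told apart.

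The probe sets of most proteasome genes read bright, with a median of 11.37 over the 46, while those of Psma8, the testis form of an alpha subunit, and Psmb11, the thymus form of a beta subunit, read 4.06 and 4.12. Probe sets differ in how brightly they bind, so these values do not order the genes by their RNA, and only values of 1 gene on different arrays are compared. Genes with bright probe sets passed the test more often than dim ones, and the shares for the 3366 genes above 9, which include 42 of the 46, are therefore given beside those for all 45037 probe sets. "Rose", "fell", "higher" and "lower" mark an adjusted p under 0.05 unless said otherwise. Differences are on the log2 scale with their standard error (SE), each mean is of 2 arrays, and it is this number of arrays that limits the precision.

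In control cells the 3 immunoproteasome genes and the rest of the proteasome moved in opposite directions between day 1 and day 3. Psmb8, Psmb9 and Psmb10 rose, while 33 of the other 43 genes fell and 1, Psmd8, rose. The median of the 43 was -0.36. The background was 15.4% of all probe sets lower and 8.46% higher, and 40.6% lower and 17.2% higher among the bright genes, with medians of 0.04 and -0.14. Among the 43 genes 76.7% were lower and 2.33% higher. Of the 34 calls among them 27 held when each of the 12 arrays was left out in turn, as did all 3 of the immunoproteasome genes, and the sign of every call held.

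**Figure D1:**
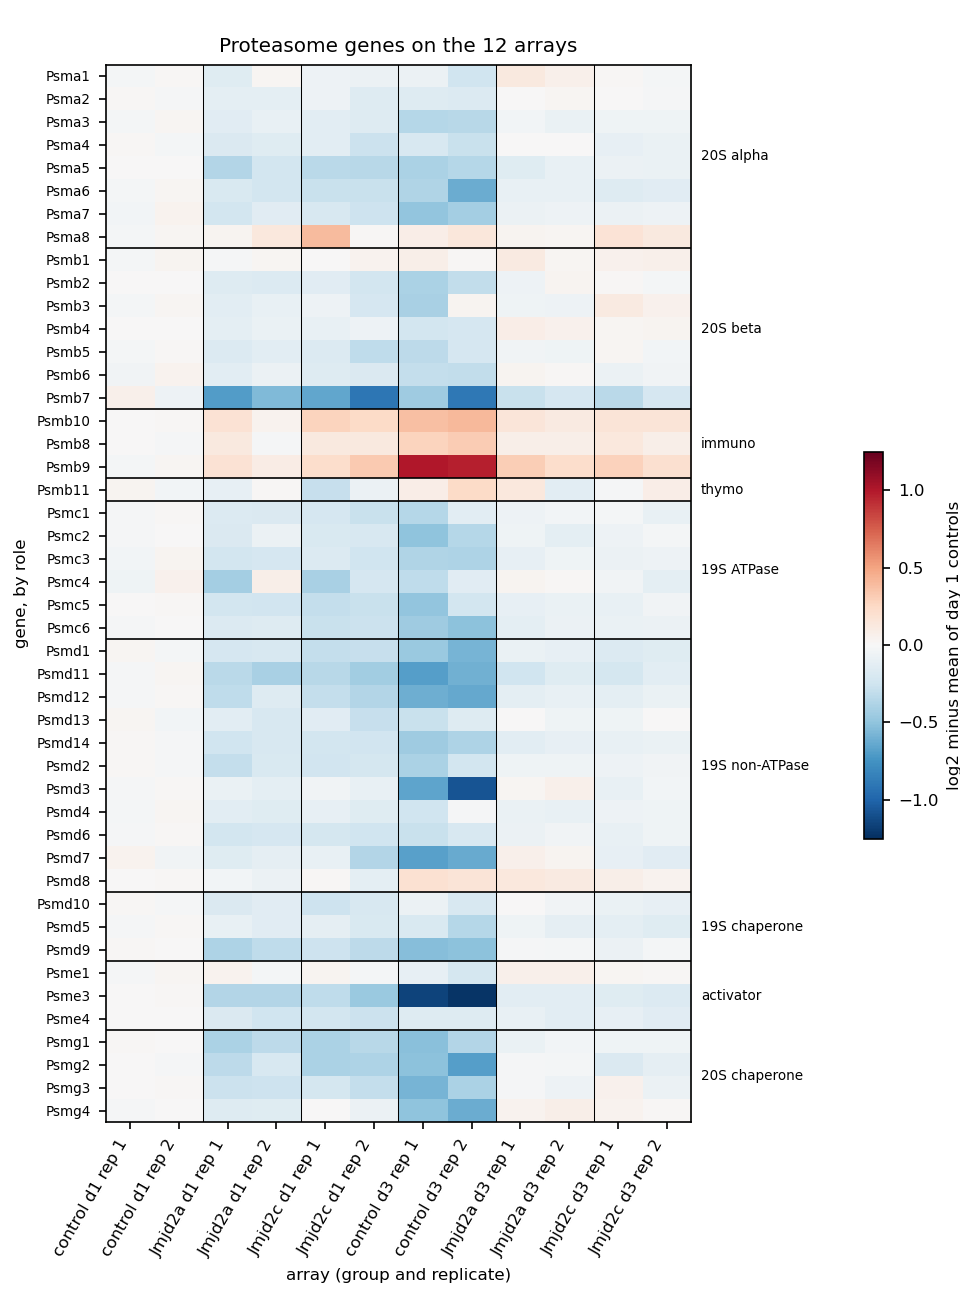
Log2 value of each of the 46 proteasome genes (rows, grouped by role) on each of the 12 arrays (columns), minus the gene's mean on the 2 day 1 control arrays. Blue is lower and red higher: the day 3 control columns are the bluest for most genes, with Psme3 lowest, and the reddest for Psmb9.

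Both day 3 control arrays lay below the other 10 arrays in 21 of the 43 genes, against 13.3% of all probe sets and 34.1% of bright genes. By group means, 34 of the 43 were lowest in day 3 control (background 26.4% and 48.6%) and 28 were highest in day 1 control (18.3% and 33.5%). Psmb8, Psmb9 and Psmb10 showed the reverse, with both day 3 control arrays above all others in 3 of 3 (background 9.86% and 14.6%). The map of values by array shows this column by column.

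Psmb9 encodes the immunoproteasome subunit that takes the place of the one from Psmb6, and it had the largest rise. It read 11.14 and 11.18 on the day 1 control arrays and 12.16 and 12.13 on the day 3 control arrays. The Jmjd2a-labelled arrays read 11.34 and 11.25 at day 1 and 11.47 and 11.38 at day 3, and the Jmjd2c-labelled arrays 11.38 and 11.49, then 11.45 and 11.36. Both day 3 control values thus stood well clear of the other 10, which lay between 11.14 and 11.49. The control rise was 0.98 (SE 0.06, adjusted p = 3.7e-07), a 1.97-fold change.

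Psmb10, whose product replaces that of Psmb7, read 11.05 and 11.06 in control at day 1 and 11.43 and 11.46 at day 3. With the Jmjd2a label it read 11.23 and 11.09, then 11.2 and 11.16, and with the Jmjd2c label 11.33 and 11.29, then 11.21 and 11.21. The day 3 controls were again above every other array and the day 1 controls below every other. The control rise was 0.39 (SE 0.05, adjusted p = 0.00019).

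Psmb8, the counterpart of Psmb5, read 12.26 and 12.25 in control at day 1 and 12.54 and 12.58 at day 3. The arrays labelled Jmjd2a read 12.38 and 12.25, then 12.33 and 12.33, and those labelled Jmjd2c 12.38 and 12.38, then 12.39 and 12.33. The rise in control, 0.30 (SE 0.04, adjusted p = 0.00032), was the smallest of the 3, and the day 3 controls were once more the highest arrays. A second, dimmer Psmb8 probe set averaging 7.04 had a rise of 0.25 that did not pass (adjusted p = 0.27).

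**Figure D2:**
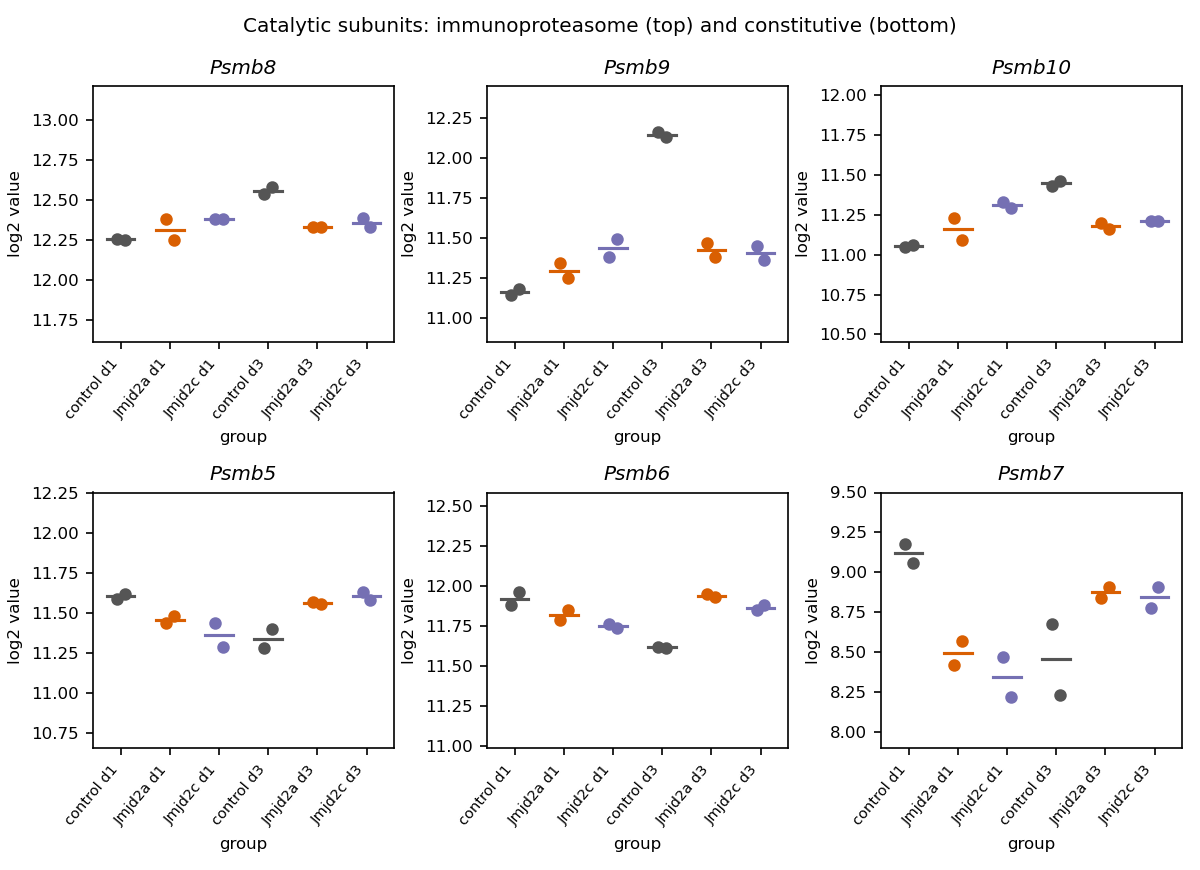
Log2 value of the immunoproteasome genes Psmb8, Psmb9 and Psmb10 (top) and of Psmb5, Psmb6 and Psmb7 (bottom) on each array (points) with the group mean (bars), by group (d1, day 1; d3, day 3). Every panel spans the same range of log2 units, and the day 3 control points lie above all others in the top row.

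The constitutive counterparts fell in control. Psmb6 read 11.88 and 11.96 at day 1 and 11.62 and 11.61 at day 3, and on the labelled arrays 11.74 to 11.85 at day 1 and 11.85 to 11.95 at day 3. The difference was -0.31 (SE 0.04, adjusted p = 0.00024), 80.9% of the day 1 level, and the day 3 control arrays were the lowest. Psmb5 read 11.59 and 11.62, then 11.28 and 11.40, and fell by 0.26 (SE 0.06, adjusted p = 0.006), a call lost without day 1 control replicate 2 (-0.25, adjusted p = 0.051).

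Psmb7 was the least steady of the catalytic genes. It read 9.18 and 9.06 in control at day 1 and 8.68 and 8.23 at day 3, so the day 3 replicates lay far apart. The difference was -0.67 (SE 0.14, adjusted p = 0.0036) and -0.44 without day 3 control replicate 2, still past the test. Set pair by pair, the control change of Psmb9 exceeded that of Psmb6 by 1.29, that of Psmb10 exceeded that of Psmb7 by 1.06 and that of Psmb8 exceeded that of Psmb5 by 0.57, differences between changes that were not tested themselves.

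The promoters of genes that moved apart are shown for comparison, each as 300 bases that end 50 bases after the start site (RefSeq, GRCm38.p6, 5′ to 3′ on the gene's own strand). Capitals mark matches, on either strand, to 4 motifs: the CCAAT box (CCAAT), the antioxidant response element (TGANNNNGC), the interferon-stimulated response element and the gamma-activated site (TTCNNNGAA).
Psmb8, chr17:34197945-34198244, plus strand: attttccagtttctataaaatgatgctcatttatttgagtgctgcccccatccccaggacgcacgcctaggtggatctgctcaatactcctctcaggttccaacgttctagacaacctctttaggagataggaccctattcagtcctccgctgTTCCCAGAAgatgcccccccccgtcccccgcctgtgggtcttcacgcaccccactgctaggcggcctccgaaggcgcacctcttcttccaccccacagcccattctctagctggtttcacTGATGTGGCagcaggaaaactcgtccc
Psmb9, chr17:34187281-34187580, minus strand: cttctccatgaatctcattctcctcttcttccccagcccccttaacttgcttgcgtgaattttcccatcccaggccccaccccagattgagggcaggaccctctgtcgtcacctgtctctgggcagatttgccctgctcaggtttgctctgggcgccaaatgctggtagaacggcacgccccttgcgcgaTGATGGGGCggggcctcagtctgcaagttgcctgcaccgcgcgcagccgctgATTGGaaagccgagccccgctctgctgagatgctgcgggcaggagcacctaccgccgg
Psmb10, chr8:105938343-105938642, minus strand: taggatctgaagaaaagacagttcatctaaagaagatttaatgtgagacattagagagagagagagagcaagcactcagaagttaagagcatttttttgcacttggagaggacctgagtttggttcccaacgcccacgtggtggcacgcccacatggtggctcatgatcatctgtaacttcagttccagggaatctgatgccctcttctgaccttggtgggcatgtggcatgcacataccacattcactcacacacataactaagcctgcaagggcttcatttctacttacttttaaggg
Psmb5, chr14:54617946-54618245, minus strand: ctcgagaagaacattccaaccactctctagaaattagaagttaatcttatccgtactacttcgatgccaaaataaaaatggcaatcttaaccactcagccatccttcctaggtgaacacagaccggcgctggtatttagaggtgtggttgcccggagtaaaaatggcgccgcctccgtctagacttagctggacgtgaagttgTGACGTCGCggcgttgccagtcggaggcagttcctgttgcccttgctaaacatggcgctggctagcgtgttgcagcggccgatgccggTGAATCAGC
Psmb6, chr11:70525107-70525406, plus strand: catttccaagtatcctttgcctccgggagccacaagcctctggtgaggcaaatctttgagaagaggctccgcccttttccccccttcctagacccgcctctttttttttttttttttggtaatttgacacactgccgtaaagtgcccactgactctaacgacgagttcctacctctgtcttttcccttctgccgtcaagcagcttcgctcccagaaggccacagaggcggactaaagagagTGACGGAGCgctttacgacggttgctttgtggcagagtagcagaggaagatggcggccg
Psme3, chr11:101315963-101316262, plus strand: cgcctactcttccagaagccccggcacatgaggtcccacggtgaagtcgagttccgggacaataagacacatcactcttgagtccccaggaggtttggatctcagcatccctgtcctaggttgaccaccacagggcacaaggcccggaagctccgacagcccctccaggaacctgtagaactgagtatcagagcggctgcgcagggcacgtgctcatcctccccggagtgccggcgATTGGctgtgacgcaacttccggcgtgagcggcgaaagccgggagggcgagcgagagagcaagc
The gene pair Psmb8 and Psmb9 lies in the MHC class II region, in the order H2-DMb1, Psmb9, Tap1, Psmb8, Tap2. The table held promoters for 38 of the 46 genes, 40 in all, and none for Psmb7.

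Psmb8 and Psmb9 each held 1 match to the antioxidant motif, with its first base at position 23 and -60 from the start site, and Psmb8 alone of the 3 held a gamma-activated match, at -97. Psmb5 held the antioxidant motif at -47 and 41 and Psmb6 at -9. Psmb9 and Psme3 held a CCAAT match on the other strand, at -8 and -14. Psmb10 held none of the 4, which says only that these letters are not in this window. No match overlapped another in the 6 promoters. The antioxidant motif was in 21 of 37 promoters of the other proteasome genes, 56.8%, and in 41.3% of all 32851 promoters. The interferon motif was in 5 of the 37, 13.5%, against 3.44% of all promoters, and in 0 of the 3 immunoproteasome promoters. CCAAT was in 35.1% against 37.4%, and the gamma-activated motif in 5.41% against 8.3%. A match is a string of letters and was not tested for binding.

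Among the alpha subunits of the core, 6 of 8 fell in control from day 1 to day 3 and none rose. The steepest was Psma6 at -0.50 (SE 0.06, adjusted p = 7.4e-05), read on a probe set whose suffix, x, marks probes that may bind other transcripts. Psma7 was at -0.46 (adjusted p = 2.7e-05) and Psma3 at -0.36 (adjusted p = 1.5e-05). Psma1 at -0.16 and the dim Psma8 at 0.11 did not pass.

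Of the constitutive beta subunits 5 of 7 fell. Psmb1, which encodes a beta subunit without a proteolytic site, stayed between 12.23 and 12.36 on all 12 arrays and passed in none of the comparisons. The day 3 control values of Psmb3, 11.76 and 12.2, straddled the day 1 pair, and its difference of -0.19 did not pass (adjusted p = 0.2), though on its other probe set, averaging 11.91, it was -0.30 and passed (adjusted p = 0.013). Psmb2 was at -0.36 and Psmb4 at -0.22, both past the test, but the other Psmb4 probe set, averaging 12.21, was at -0.08 (adjusted p = 0.56).

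In the regulatory particle 5 of 6 ATPases and 9 of 11 other subunits fell. Psmc6 was the lowest ATPase at -0.47 (adjusted p = 1.5e-05) and Psmc4, at -0.22, did not pass (adjusted p = 0.22). Another Psmc4 probe set, averaging 10.83, was at -0.31 and passed (adjusted p = 0.0071). Psmd3, a scaffold subunit of the lid, read 10.06 and 10.08 in control at day 1 and 9.41 and 8.99 at day 3, against 9.95 to 10.13 on the 8 labelled arrays. Only the day 3 controls were low, and they differed from each other more than other pairs did. The difference was -0.87 (SE 0.11, adjusted p = 8.4e-05). Psmd7 was at -0.66, Psmd11 at -0.64 and Psmd12 at -0.62, while the deubiquitinase gene Psmd14 was at -0.42 (adjusted p = 7.7e-06).

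Psmd8, another lid subunit, was the exception. It read 11.31 and 11.32 in control at day 1 and 11.5 and 11.47 at day 3, above all other arrays, and on the labelled arrays 11.19 to 11.32 at day 1 and 11.35 to 11.44 at day 3. The control rise of 0.17 (SE 0.05, adjusted p = 0.028) did not hold without either day 1 control array (adjusted p = 0.14 and 0.12), without day 3 control replicate 1 (0.051) or without either Jmjd2c-labelled day 3 array (0.05 each). Psmd4, the ubiquitin receptor, was at -0.13 and did not pass (adjusted p = 0.16).

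Assembly factors fell throughout the core pathway. All 4 Psmg genes were lower, from -0.45 for Psmg1 to -0.60 for Psmg2 (adjusted p = 0.00024 and 5.3e-05). Psmg2 read 10.83 and 10.82 at day 1 and 10.32 and 10.14 at day 3. Its labelled arrays read 10.43 to 10.63 at day 1 and 10.65 to 10.82 at day 3, so the day 3 controls were the lowest of the 12. Of the 3 chaperones of the regulatory particle, Psmd9 (-0.53) and Psmd5 (-0.28) fell and Psmd10 (-0.13) did not pass. The Psmd5 call was lost without either day 1 control array (adjusted p = 0.11 each) or day 3 control replicate 2 (-0.19, 0.077).

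Of the activators, the gene for the nuclear form PA28-gamma, Psme3, changed most of all 46. It read 9.83 and 9.84 on the day 1 controls and 8.67 and 8.6 on the day 3 controls. The Jmjd2a-labelled arrays read 9.46 and 9.46, then 9.7 and 9.7, and the Jmjd2c-labelled arrays 9.51 and 9.37, then 9.68 and 9.66. Replicates lay close together, and the 6 groups were ordered from day 1 control at the top, through labelled day 3 and labelled day 1, to day 3 control at the bottom. The control fall was 1.20 on the log2 scale (SE 0.07, adjusted p = 3.7e-07), to 43.5% of the day 1 level. A second Psme3 probe set, dimmer at 6.9, fell by 1.36 (adjusted p = 0.00048).

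Psme1, which encodes an interferon-induced activator subunit often grouped with the immunoproteasome, did not follow Psmb8, Psmb9 and Psmb10. It read 12.54 and 12.57 in control at day 1 and 12.45 and 12.33 at day 3, and fell by 0.16 (SE 0.04, adjusted p = 0.016). The call was lost without day 3 control replicate 2 (-0.10, adjusted p = 0.13) or either day 1 control array (adjusted p = 0.067 and 0.1). Psme4, the gene of the activator PA200, was at -0.16 and did not pass (adjusted p = 0.06). A dim Psme4 probe set, averaging 5.79, was at -0.70 and passed (adjusted p = 0.0031), and the other Psme4 probe sets did not.

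**Figure D3:**
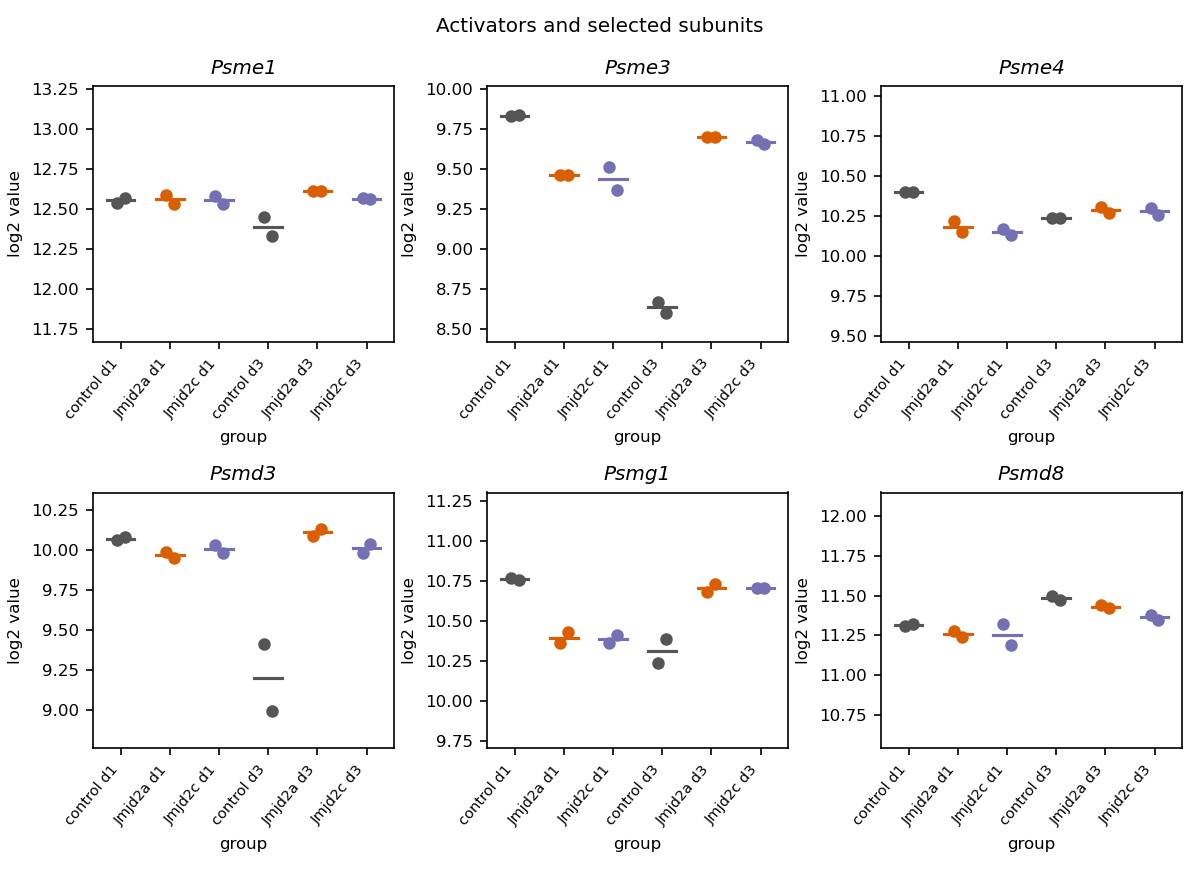
Log2 value of the activator genes Psme1, Psme3 and Psme4 and of Psmd3, Psmg1 and Psmd8 on each array (points) with the group mean (bars), by group. Psme3 and Psmd3 are lowest on the day 3 control arrays, and Psmd8 is highest there.

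At day 3 most of the 43 genes were higher than control in both labelled groups. These comparisons use the same day 3 control arrays as the control change, with the opposite sign, so their direction is not independent of it. With the Jmjd2a label 31 of the 43 genes were higher and 0 lower, with a median of 0.28, and with the Jmjd2c label 28 were higher and 0 lower, with a median of 0.29. All 3 immunoproteasome genes were lower with either label. The backgrounds for Jmjd2a were 13.7% higher and 7.11% lower among all probe sets, and 37.2% and 14.2% among bright genes. For Jmjd2c they were 9.28% and 5.04%, and 31.7% and 14.5%. The members' shares were 72.1% and 65.1% higher. The 28 genes called higher with Jmjd2c were also called higher with Jmjd2a, but both comparisons use the same day 3 control arrays and so are not independent.

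Psmb9 differed by -0.71 with the Jmjd2a label (SE 0.06, adjusted p = 7.6e-06) and by -0.74 with the Jmjd2c label (SE 0.06, adjusted p = 7.7e-06), at 61% and 59.9% of control. Psmb10 differed by -0.27 and -0.24 (adjusted p = 0.0035 and 0.0098), and Psmb8 by -0.23 and -0.20 (adjusted p = 0.003 and 0.0082). For Jmjd2c the Psmb10 call was lost without replicate 1 or 2 of that group at day 3 (adjusted p = 0.073 and 0.083), and the Psmb8 call without replicate 2 (-0.17, adjusted p = 0.11). No labelled day 3 array reached the level of either day 3 control in any of the 3 genes.

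Their constitutive counterparts were higher. Psmb6 differed by 0.32 and 0.25 with the Jmjd2a and the Jmjd2c label (adjusted p = 0.00025 and 0.0016). Psmb5, which read 11.57, 11.56, 11.63 and 11.58 on the labelled day 3 arrays, differed by 0.22 and 0.26 (adjusted p = 0.018 and 0.0094). The Jmjd2a call was lost without replicate 1 or 2 of that group at day 3 (adjusted p = 0.091 and 0.1) or day 3 control replicate 1 (0.16, adjusted p = 0.056), and the Jmjd2c call without Jmjd2c-labelled day 3 replicate 1 or 2 (adjusted p = 0.097 and 0.05). Psmb7 differed by 0.43 (adjusted p = 0.045) and 0.39 (adjusted p = 0.083), and the former was 0.65 without day 3 control replicate 1 and 0.20 without replicate 2. It passed only with all 12 arrays, without that replicate 1 or without a Jmjd2c-labelled day 1 array, and was lost without each of the other 9 (adjusted p = 0.054 to 0.28).

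Psme3 again had the largest difference of the 46. It was higher by 1.07 and 1.04 (SE 0.07 each, adjusted p = 2.4e-06 and 3.4e-06), a 2.09-fold and 2.05-fold difference. Psmd3 was higher by 0.91 and 0.82 and Psmd7 by 0.70 and 0.53. All 4 Psmg genes were higher with both labels, from 0.39 for Psmg1 to 0.62 for Psmg4 with Jmjd2a and from 0.40 to 0.59 for the same genes with Jmjd2c. Of the alpha subunits 7 of 8 were higher with Jmjd2a and 5 of 8 with Jmjd2c, of the ATPases 4 of 6 with each, and of the other subunits of the regulatory particle 8 of 11 with each.

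Some members did not take part on their brightest probe sets. Psmd4 differed by 0.04 and 0.08 and Psmd8 by -0.05 and -0.12. Psme4 differed by 0.05 and 0.04 and Psmb1 by 0.02 with each label, and none of these passed. A dim Psme4 probe set, averaging 5.79, was at 0.84 and 0.59 and passed (adjusted p = 0.0012 and 0.014). The other Psme4 probe sets did not pass. Psme1 was higher by 0.22 (adjusted p = 0.0034) and 0.17 (adjusted p = 0.019), the latter lost without day 3 control replicate 2 (0.11, adjusted p = 0.12) or Jmjd2c-labelled day 3 replicate 1 or 2 (adjusted p = 0.12 and 0.11). Where a gene had a second probe set of its own above 6.08, the median over all genes, as 21 did, the second had the sign of the brightest in 21 of 21 for the control change, in 20 of 21 for each label at day 3 and in 18 of 21 for each at day 1. Of the genes called on the brightest, the second was called as well in 11 of 15 for the control change, in 9 of 15 and 8 of 14 at day 3 and in 3 of 7 and 9 of 12 at day 1, for Jmjd2a and Jmjd2c in that order.

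At day 1 part of the proteasome genes were lower in the labelled groups than in control. With the Jmjd2a label 15 of 43 were lower, 28 did not pass and 0 were higher, with a median of -0.17, and with the Jmjd2c label 25 were lower and 0 higher, with a median of -0.23. The backgrounds for Jmjd2a were 3.25% lower and 4.23% higher in all, and 15.3% and 10.4% among bright genes. For Jmjd2c they were 5.69% and 5.32%, and 23.7% and 12.6%. The members' shares were 34.9% and 58.1% lower. B cell markers differed between the same arrays, with 4 and 6 of 7 higher than control at day 1 (medians 0.64 and 0.79 for Jmjd2a and Jmjd2c), and their part in the result was not tested. All 15 called with Jmjd2a were among the 25 called with Jmjd2c, against the same day 1 controls. Differences between replicates 1 and 2 over all probe sets also correlated between these labelled groups (0.392), so the comparisons are not independent. The count over all 46 with Jmjd2a, 15, was 4 without either day 1 control array, 6 without Jmjd2a-labelled day 1 replicate 1, 9 without either Jmjd2c-labelled day 3 array and 24 without either day 3 control array. The count over all 46 with Jmjd2c, 27, was 11 and 10 without day 1 control replicate 1 and 2 and 12 without Jmjd2c-labelled day 1 replicate 2.

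The calls that held without any one array were Psma5, Psmd11, Psmd14 and Psmg1 for both labels, with Psma5 at -0.30 and -0.35 (adjusted p = 0.0023 and 0.00063). Psmd11 was at -0.37 and -0.39 and Psmg1 at -0.37 and -0.38. For Jmjd2c alone Psme3, Psmc6, Psmd1, Psmd12 and Psmg2 held as well. Psme3 was at -0.40 there (adjusted p = 0.0034) and at -0.37 with Jmjd2a (adjusted p = 0.0065), a call lost without either day 1 control array (adjusted p = 0.068 and 0.08).

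Psmb7 had the largest day 1 difference, -0.62 and -0.78 (SE 0.14, adjusted p = 0.017 and 0.0034). It read 8.42 and 8.57 with the Jmjd2a label and 8.47 and 8.22 with the Jmjd2c label, all below both controls. The Jmjd2a call was lost without either day 1 control array (adjusted p = 0.16 and 0.084) or Jmjd2a-labelled day 1 replicate 1 (0.14), and the Jmjd2c call without day 1 control replicate 1 (0.051). Psmb5 and Psmb6 fell with Jmjd2c (-0.24 and -0.17, adjusted p = 0.02 and 0.022) and did not pass with Jmjd2a (-0.15 and -0.10). Both Jmjd2c calls were lost without either day 1 control array (adjusted p = 0.057 to 0.22) or Jmjd2c-labelled day 1 replicate 2 (adjusted p = 0.18 and 0.12), and that of Psmb6 also without replicate 1 (0.066). Psme4 was lower with both (-0.21 and -0.25, adjusted p = 0.041 and 0.014), and both calls were lost without either day 1 control array. The Jmjd2a call was lost as well without either Jmjd2a-labelled day 1 array or any labelled day 3 array (adjusted p = 0.077 to 0.23), and the Jmjd2c call without Jmjd2c-labelled day 1 replicate 2 (0.094 to 0.11). The second Psme4 probe set, averaging 9.85, was at -0.12 and -0.15 and did not pass (adjusted p = 0.59 and 0.41). Psme1 differed by 0.01 and 0.00.

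On their brightest probe sets the 3 immunoproteasome genes had positive differences from control at day 1, and only with Jmjd2c did any pass. With Jmjd2c, Psmb9 was higher by 0.27 (SE 0.06, adjusted p = 0.0099) and Psmb10 by 0.25 (SE 0.05, adjusted p = 0.0093), and Psmb8 at 0.12 did not pass (adjusted p = 0.11). Both calls were lost without either day 1 control array (adjusted p = 0.061 to 0.098), that of Psmb9 also without Jmjd2c-labelled replicate 2 (0.21, adjusted p = 0.097) and that of Psmb10 without replicate 1 (0.23, adjusted p = 0.06). With Jmjd2a the 3 differed by 0.13, 0.11 and 0.06, none past the test. The second Psmb8 probe set, averaging 7.04, had the opposite sign, at -0.06 with Jmjd2a and -0.31 with Jmjd2c (adjusted p = 0.91 and 0.28).

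**Figure D4:**
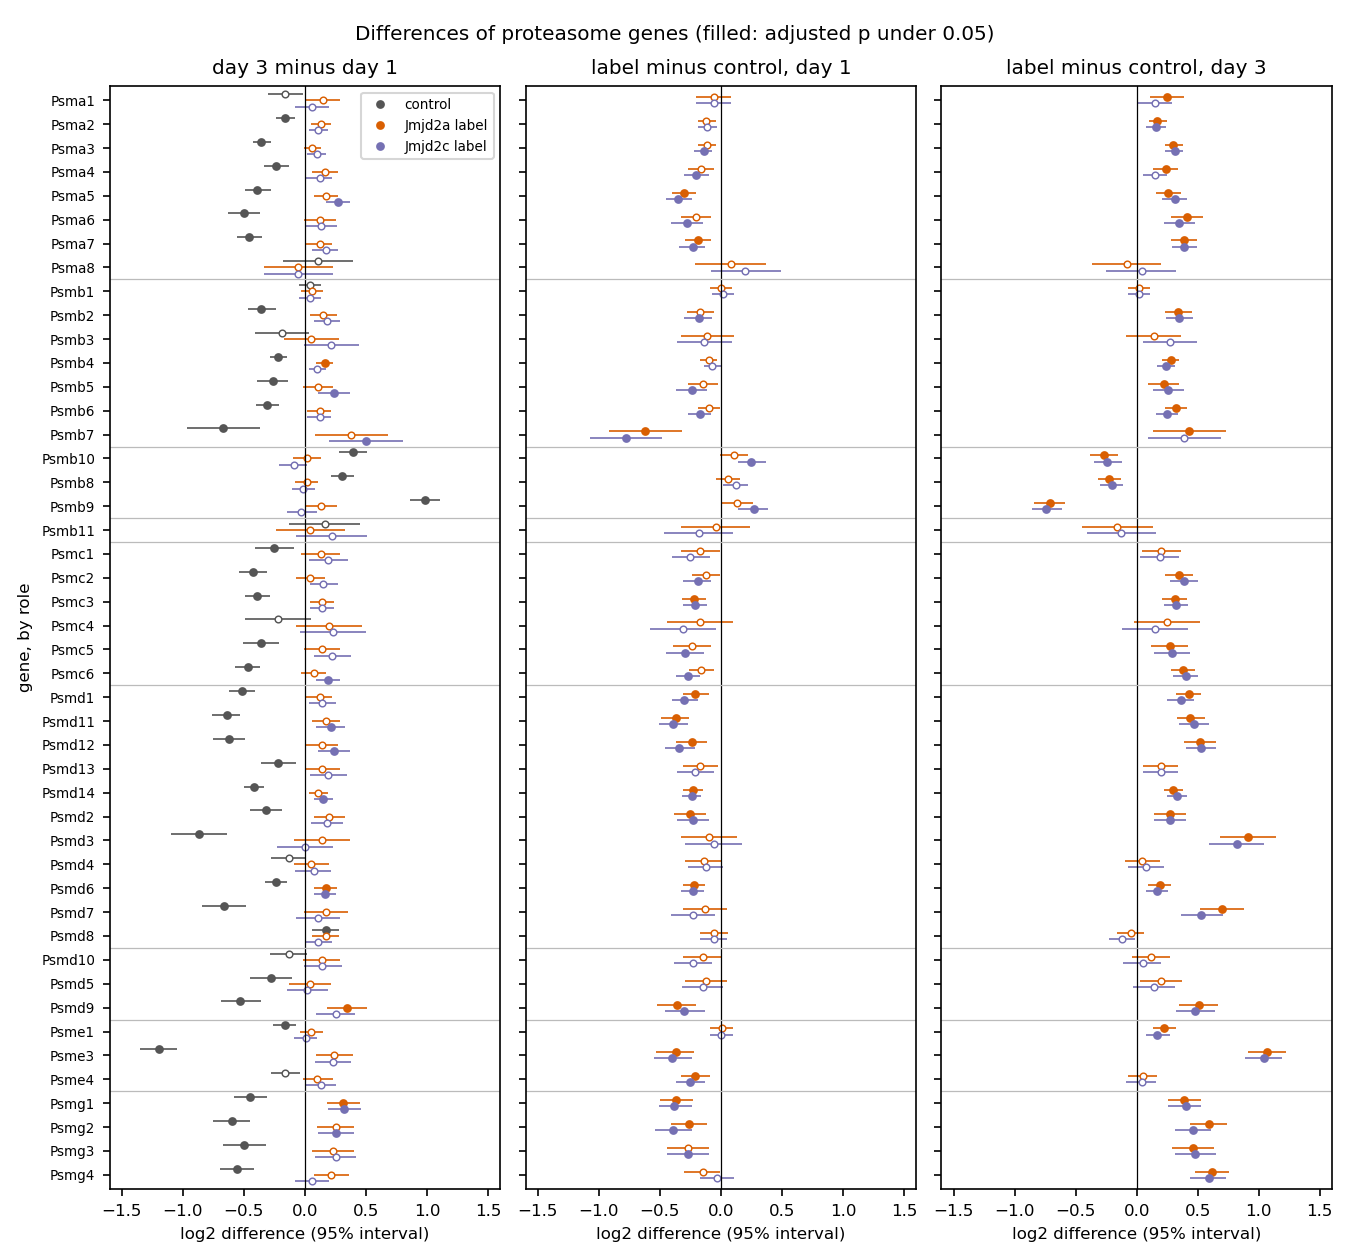
Log2 differences of the 46 genes with 95% intervals: day 3 minus day 1 within control and each label (left), and each label minus control at day 1 (middle) and day 3 (right). Filled points have an adjusted p under 0.05: most genes are filled below 0 for the control change and above 0 for the day 3 comparison, and Psmb8, Psmb9 and Psmb10 are on the opposite sides.

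Within the labelled groups few proteasome genes passed the test between the days. With the Jmjd2a label 4 of 43 rose and 0 fell (background 2.26% higher and 3.35% lower, 9.15% and 7.78% among bright genes), with a median of 0.14. The genes were Psmb4, Psmd6, Psmd9 and Psmg1. With the Jmjd2c label 10 rose and 0 fell (background 3.27% higher and 5.36% lower, 14% and 11.7% among bright genes), with a median of 0.15. They were Psma5, Psmb5, Psmb7, Psmc6, Psmd11, Psmd12, Psmd14 and Psmg2, besides Psmd6 and Psmg1. The share with Jmjd2a, 9.3%, was close to that of bright genes, and that with Jmjd2c was 23.3%. None of these calls held without each array in turn. The Jmjd2a count was 0 without Jmjd2a-labelled day 1 replicate 1 or either of its day 3 arrays, 7 without either Jmjd2c-labelled day 1 array and 17 without either day 3 control array. The Jmjd2c count was 0 and 1 without its day 3 replicate 1 and 2, 5 and 2 without its day 1 replicate 1 and 2, 4 without either day 1 control array, 6 without either Jmjd2a-labelled day 3 array and 24 without either day 3 control array. The 3 immunoproteasome genes changed by 0.02 to 0.13 with Jmjd2a and by -0.09 to -0.02 with Jmjd2c, none past the test.

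The difference between these changes was tested directly. The day 3 minus day 1 change was higher than that of control in 34 of 43 genes for Jmjd2a (background 12% higher and 6.36% lower, 37.6% and 15.6% among bright genes) and in 32 for Jmjd2c (background 10.7% and 6.84%, 36.5% and 17.4%), and lower in 0. It was lower in all 3 immunoproteasome genes for both labels, with Psmb9 at -0.85 and -1.01 (SE 0.08 each, adjusted p = 2.8e-05 and 7.7e-06). For Psme3 it was 1.44 and 1.43 (SE 0.10 each, adjusted p = 4e-06 and 3.5e-06). Of the calls 29 among the 43 and all 3 immunoproteasome genes held without each array in turn, for either label.

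Between the labels no proteasome gene differed past the test. In limma 0 of 46 passed at either day, with 3 and 0 at an unadjusted p under 0.05, and 0 of 45037 probe sets passed (0% of the background). The 95% intervals of the 46 differences lay within -0.41 to 0.45 at day 1 and -0.41 to 0.37 at day 3, with a median half-width of 0.13 at each. For Psmb9 at day 3 the difference was 0.02, with an interval from -0.10 to 0.15. Differences smaller than such intervals cannot be resolved with 2 arrays a group.

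Other genes of the pathway were taken from a list of cofactors, ubiquitin shuttles and segregase subunits, of which 21 of 28 were measured. In control 17 fell and 0 rose from day 1 to day 3, 81% lower against 15.4% of all probe sets and 40.6% of bright genes, with a median of -0.32. Among them were the shuttle Rad23b (-0.62, adjusted p = 4.3e-06), the deubiquitinase Uchl5 (-0.47) and Txnl1, a thioredoxin-like protein bound to the proteasome (-0.51). The core maturation factor Pomp read 12.43 and 12.44 at day 1 and 12.25 and 12.22 at day 3, a fall of 0.20 (adjusted p = 0.0046). At day 3, 14 were higher with the Jmjd2a label and 13 with the Jmjd2c label, and 0 were lower. These are 66.7% and 61.9%, against 37.2% and 31.7% of bright genes and 13.7% and 9.28% of all probe sets. Nfe2l1, which encodes a transcription factor for proteasome genes, was -0.32 in the control change and 0.38 and 0.39 in the day 3 comparisons (adjusted p = 0.01, 0.0044 and 0.0048). At day 1, where proteasome genes were lower, Nfe2l1 differed from control by 0.08 with Jmjd2a and 0.09 with Jmjd2c, neither past the test (adjusted p = 0.71 and 0.61). Its part in the proteasome differences was not tested. At day 1, 3 and 6 of the 21 were lower and 0 higher, shares of 14.3% and 28.6%. These are near the 15.3% and 23.7% of bright genes and above the 3.25% and 5.69% of all probe sets. Some of the 21, such as Nploc4 at 8.41, averaged below 9, so the bright genes are not a matched background for this list.

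Of the genes of MHC class I presentation 13 of 14 were measured, and they split. In control 6 rose and 4 fell, 46.2% and 30.8% (background 8.46% and 15.4%, and 17.2% and 40.6% among bright genes). Those that rose were H2-K1 (0.30), H2-D1 (0.19), Tap1 (0.72), Tap2 (0.51), Nlrc5 (0.52) and Irf1 (1.03), which encode heavy chains, the peptide transporter and transcription factors of the class I and interferon pathways. The heavy chain genes H2-K1 and H2-D1 were each read on a probe set with the suffix x, whose probes may bind other transcripts. Those that fell, Erap1 (-0.66), Calr (-0.23), Canx (-0.35) and Pdia3 (-0.32), encode a peptide-trimming enzyme and chaperones of the endoplasmic reticulum. Irf1 read 9.39 and 9.38 in control at day 1 and 10.46 and 10.36 at day 3, and on the labelled arrays 9.74 to 10.1 at day 1 and 9.53 to 9.69 at day 3. The day 3 controls were thus the highest. At day 3 Irf1 differed by -0.80 with each label (adjusted p = 0.00011 and 0.00013) and Tap1, the neighbour of Psmb8 and Psmb9, by -0.52 and -0.48 (adjusted p = 0.00079 and 0.0018). Over the list 2 and 3 were higher and 5 and 6 lower at day 3, and 5 and 6 were higher and 1 and 2 lower at day 1, for Jmjd2a and Jmjd2c in that order. In shares these were 15.4% and 23.1% higher and 38.5% and 46.2% lower at day 3, against 37.2% and 31.7% higher and 14.2% and 14.5% lower among bright genes. At day 1 they were 38.5% and 46.2% higher and 7.69% and 15.4% lower, against 10.4% and 12.6% higher and 15.3% and 23.7% lower.

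Of the 7 B cell markers 3 were higher and 1 lower in the control change, 42.9% and 14.3% against 8.46% and 15.4% of all probe sets. Against control at day 3, 1 was higher and 2 were lower with each label, 14.3% and 28.6%. Among all probe sets 13.7% and 9.28% were higher and 7.11% and 5.04% lower, for Jmjd2a and Jmjd2c. Markers of other cells moved between the same groups. The 18 macrophage markers averaged 5.32 on both day 1 controls, 7.59 to 8.7 on the labelled day 1 arrays, 6.81 and 6.87 on the day 3 controls and 5.88 to 5.99 on the labelled day 3 arrays. Of them 13 were higher at day 3 in control, 16 and 17 were higher with Jmjd2a and Jmjd2c at day 1, and 11 and 9 were lower at day 3. These are shares of 72.2%, 88.9% and 94.4% higher and of 61.1% and 50% lower, against 8.46%, 4.23% and 5.32% higher and 7.11% and 5.04% lower among all probe sets. Macrophage signal was thus highest on the labelled day 1 arrays and lowest on the day 1 controls.

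The 8 natural killer cell markers averaged 5.18 and 5.29, 6.33 to 6.76, 7.37 and 7.44, and 6.01 to 6.25 in the same order, highest on the day 3 controls, and 6 of them were higher there than at day 1. Against control 5 and 6 were higher at day 1 and 6 with each label were lower at day 3. These are shares of 75%, 62.5% and 75% higher and of 75% lower with each label. Among all probe sets 8.46%, 4.23% and 5.32% were higher and 7.11% and 5.04% lower. The 7 dendritic cell markers also averaged highest on the day 3 controls, at 6.14 and 6.09 against 5.46 to 5.81 on the other arrays. In the control change 4 were higher and 1 lower, 57.1% and 14.3% against 8.46% and 15.4% of all probe sets. The 11 T cell markers averaged 5.58 and 5.61 on the day 1 controls, 5.97 to 6.13 on the labelled day 1 arrays, 6.03 and 5.93 on the day 3 controls and 5.65 to 5.8 on the labelled day 3 arrays. In the control change 6 were higher and 1 lower, 54.5% and 9.09% against that same background. Against control 4 were higher with each label at day 1 (36.4%). At day 3, 1 was higher with each label, and 4 and 2 were lower (36.4% and 18.2%) for Jmjd2a and Jmjd2c. The 5 erythroid markers averaged 5.79 to 6.22 on the labelled day 1 arrays and 4.65 to 4.84 on all other arrays. At day 1, 2 and 3 of them were higher than control with Jmjd2a and Jmjd2c (40% and 60%), and at day 3 none passed. The 7 stromal markers averaged 4.45 to 4.96 over the arrays, and 1 was higher with each label at day 1 (14.3%). The 8 neutrophil markers averaged 4.47 and 4.55 on the day 1 controls, 5.55 and 5.67 on the day 3 controls and 4.8 to 4.96 on the labelled day 3 arrays. In the control change 1 was higher (12.5%), and at day 3 1 was lower with each label (12.5%). At day 1, 0 passed with either label. On the labelled day 1 groups they averaged 5.22 and 5.18 on replicate 1, against 7.15 and 7.68 on replicate 2. Without both of those arrays the day 1 counts over the 46 were 16 for Jmjd2a and 14 for Jmjd2c. Array values have no true zero, so no marker could be scored as absent. The part of these cells in the proteasome differences was not tested.

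The genes that share only letters with the family are Psmc3ip, which encodes a meiotic recombination factor, and Psme3ip1. Psmc3ip differed by -0.90 in the control change, by -0.40 and -0.42 at day 1 and by 0.86 and 0.78 at day 3, all past the test. Psme3ip1 passed in none of these.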

How the data were processed

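RNA from 12 B cell samples had been hybridised to Affymetrix mouse genome arrays, per the labels' protocols. The deposited log2 values were used as given, because the labels do not state the authors' normalization, and depth has no meaning for such values. Of the 45037 probe sets tested (64 controls were left out), 34945 had 1 gene symbol, 932 several and 9160 none in the platform annotation. Only those with 1 symbol named a gene. limma 3.58.1 in R 4.3.3 fitted the 6 group means to all probe sets (lmFit, contrasts.fit, eBayes with trend; residual df 6, prior df 5.85), with Benjamini-Hochberg adjustment over all probe sets and 95% intervals. The script was tested on simulated data. Genes were named by role: the catalytic genes and their counterparts, the activators, the smallest p in each direction, and the extremes of each role class. Members, lists and tests were chosen with earlier results of these data known. Alternatives changed the scaling, filter, trend, weights, probe set, threshold, arrays fitted and replicates. Replicate numbers were checked as pairs. Figures were drawn in matplotlib 3.10.9.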

Additional observations from a re-analysis of the deposited data

Results flagged for a closer look

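The change from day 1 to day 3 differed from that of control in 37 of the 46 proteasome genes for the Jmjd2a label and in 35 for the Jmjd2c label, by limma's test of the difference itself. The tests for both labels share the 4 control arrays.

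Of the genes called, only the catalytic genes, their immunoproteasome counterparts and the activators are named here, and the other genes called are not listed. All values are on the log2 scale. Among the immunoproteasome genes, Psmb8 differed by -0.29 and -0.32, Psmb9 by -0.85 and -1.01 and Psmb10 by -0.38 and -0.49, for Jmjd2a and Jmjd2c in that order. Among the constitutive counterparts, Psmb5 differed by 0.37 and 0.50, Psmb6 by 0.42 for each label and Psmb7 by 1.05 and 1.17. Among the activators, Psme3 differed by 1.44 and 1.43 and Psme4 by 0.26 and 0.29, and Psme1 by 0.21 for Jmjd2a.

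For Psme4 the call was lost without either day 1 control array with both labels, and also without Jmjd2a-labelled day 1 replicate 2 or any labelled day 3 array for Jmjd2a, and without Jmjd2c-labelled day 1 replicate 2 or either of its day 3 arrays for Jmjd2c. For Psme1 the Jmjd2a call was lost without either day 1 control array, Jmjd2a-labelled day 1 replicate 2, day 3 control replicate 2 (0.15, adjusted p = 0.08) or any labelled day 3 array.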

How the results depend on the processing

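The counts at day 3, of the control change and of its difference from the labels stayed within 1.5 times under every alternative, and no called difference turned its sign. The other counts over the 46 genes moved, and the causes were not tested. For Jmjd2a at day 1 (15) the count was 23 with probe sets above the median level, 5 without the intensity trend, 26 with array weights and 24 at an adjusted p under 0.10. For Jmjd2c at day 1 (27) it was 7 without the trend. For the Jmjd2a change between days (4) it was 12, 1, 18 and 13 under those 4 settings, and for the Jmjd2c change (10) 17, 0, 26 and 19, with 6 after centring arrays on their medians and 19 with only the arrays of the comparison. Between the labels at day 3 (0) it was 2 with only the arrays of the comparison. Without both day 1 label arrays numbered 2, an alternative chosen after seeing the data, the counts were 14 for Jmjd2c at day 1, 8 for the Jmjd2a change and 3 for the Jmjd2c change.

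Leaving out each array gave 4 to 24 for Jmjd2a and 10 to 31 for Jmjd2c at day 1, 27 to 36 and 23 to 35 at day 3, 31 to 38 for the control change, 0 to 17 and 0 to 24 for the changes with Jmjd2a and Jmjd2c, 32 to 39 and 33 to 39 for their differences from control, and 0 between the labels.

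Differences that turned sign were uncalled and small. With single arrays left out, those at day 1 with Jmjd2a ran from -0.01 to 0.12 for Psmb8 and from -0.02 to 0.04 for Psme1. In the Jmjd2a change they ran from -0.05 to 0.08 for Psmb8 and from -0.06 to 0.09 for Psmb10, and in the Jmjd2c change from -0.05 to 0.01 for Psmb8, from -0.08 to 0.03 for Psmb9 and from -0.02 to 0.03 for Psme1. Without both day 1 label arrays numbered 2, Psmb8 was -0.05 and Psmb10 -0.06 in the Jmjd2a change, and Psmb9 0.03 and Psme1 -0.02 in the Jmjd2c change. Over the mean of all own probe sets, Psmb8 was -0.10 with Jmjd2c at day 1 and 0.17 in the Jmjd2c change, and Psme4 -0.01 in that change. After quantile normalization Psme4 was -0.02 and -0.01 at day 3 and Psmb10 -0.03 in the Jmjd2a change, and after centring Psme1 was -0.01 in the Jmjd2c change.

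Averaging all own probe sets lowered some sizes: Psme3 at day 3 was 0.66 and 0.61, Psmd7 0.28 and 0.22, and Psmd11 with Jmjd2a 0.10 (adjusted p = 0.29). The replicate numbers did not pair the samples throughout, as 1 of 15 group pairs correlated above 0.1 (range -0.111 to 0.392). That pair, at 0.392, was the Jmjd2a-labelled and the Jmjd2c-labelled day 1 group. Replicates of the same number there cannot be taken as separate, and why they correlated was not tested. With the replicate block the counts were 17 and 26 at day 1, 34 and 32 at day 3, 37 for the control change, 5 and 11 for the changes with the labels, 37 and 35 for their differences from control and 0 between the labels. Other scalings moved the median of all probe sets by at most 0.04. The cofactor and MHC genes were not rerun with arrays left out. With 2 arrays a group, differences under about 0.13 are within the usual interval.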
